A study of Mus musculus with 13 samples.

Results

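The lysosomal genes described here encode the vacuolar proton pump and the enzymes and membrane proteins of the lysosome. They were taken from the gene table by symbol. Names that begin with Atp6v0 or Atp6v1 mark the membrane sector (V0) and the catalytic sector (V1) of the pump, and 31 further names are cathepsins, other hydrolases, lipid-handling proteins and lysosomal membrane proteins. All 31 names were found, together with 21 pump rows, which makes 52 of the 15213 genes listed. One pump row, Atp6v0c-ps2, is a pseudogene of Atp6v0c, so that 20 pump genes remain, and Atp6v1e2 and Atp6v1g3 had no row. All 52 genes passed the filter on low values, which left 11795 genes for the test.

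RNA from 10 mammary tumors and 3 mammary glands was sequenced. The tumors came from 6 females of the genotype MMTV-tTA TetO-Tsg101 (written MtTA Teto-TSG101wt in the labels), in which the mouse mammary tumor virus promoter drives the tetracycline transactivator in a mosaic of luminal epithelial cells and the transactivator switches on a transgene for wild-type TSG101, a subunit of the ESCRT-I complex of endosomes. Of these females, 3 gave 1 tumor each, 2 gave 2 tumors each and 1 gave 3 tumors (tumors 8, 9 and 10), so that tumors of the same mouse were not independent. The glands came from 3 wild-type FVB females that carried neither transgene, and the age and reproductive stage of the females in both groups are not given in the sources used here. All specimens were pieces of whole tissue, in which fewer cells of a type and less RNA per cell cannot be told apart.

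Lysosomes break down proteins, glycans, lipids and nucleic acids that arrive from endosomes, autophagosomes and phagosomes. Most of their hydrolases work only in an acidic lumen, which the proton pump maintains by coupling ATP hydrolysis in V1 to proton transport through V0. The ESCRT complexes, to which TSG101 belongs, sort ubiquitinated membrane receptors into vesicles inside the endosome that are then degraded in the lysosome. In the mammary gland, lysosomal cathepsins are also known from the regression of the gland after weaning and from macrophages in tumors.

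Depth ranged from 6176269 to 16835397 reads per tumor and from 11672487 to 23889042 per gland. Levels are given as normalized cpm, the cpm scaled to the effective size of each library, and a count of 3 reads, the most that a count of 0 allows, was worth 0.141 to 0.683 in a tumor and 0.128 to 0.366 in a gland, a limit of counting alone. Ribosomal precursor RNA (Rn45s) took up to 27.4% of the reads of a tumor (tumor 9) and up to 4.35% of those of a gland (gland 3). Epithelial marker genes were present in every library, with a summed level of 2042 to 3040 in the tumors and of 1904, 2734 and 1249 in glands 1, 2 and 3. Of the other marker lists, the summed macrophage (1350 to 5280 in tumors against 823 to 2199 in glands), neutrophil and squamous genes were higher in the tumors, the macrophage sums overlapping, and the adipocyte (41.6 to 562 against 4418 to 12326), fibroblast, endothelial, sebaceous gland (2093 to 4500 against 13686 to 19066) and milk protein genes (1384 to 76623 against 165034 to 305121) were lower. Lymphocyte genes summed to 12.2 to 138 in the tumors and to 529, 25.7 and 542 in glands 1, 2 and 3, and skeletal muscle genes reached 1750 in tumor 4, whereas the tumor median was 2.15. The row of Tsg101 (Entrez 22088, GRCm38.p6 chromosome 7, 46888949 to 46926320) ranged from 49.9 to 101 around a median of 63.4 normalized cpm in the tumors and stood at 45.6, 53.0 and 61.0 in glands 1, 2 and 3. The groups overlapped, with 6 of 10 tumors above every gland (log2 fold change 0.30, SE 0.20, limma adjusted p = 0.296), so that the Tsg101 row did not separate the libraries. The squamous markers did, with sums of 310 to 2986 in the tumors and 6.59 to 20.4 in the glands.

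Tumors and glands were compared for all 11795 genes with limma on log2(normalized cpm + 1), and a gene was called when its change exceeded 2-fold at a false discovery rate (FDR, Benjamini-Hochberg) under 0.05. Of the 52 lysosomal genes, 7 were called higher and 4 lower in the tumors. Over all genes tested, 10.2% were called higher and 6.99% lower, 17.2% in all, beside 21.2% of the lysosomal genes. The genes that rose were Atp6v0a4, Atp6v0d2 and Atp6v1b1 of the pump and Ctsl, Ctss, Ctsc and Lgmn of the proteases, and those that fell were Atp6v0a2 of the pump and Glb1, Lipa and Npc2, which handle glycans and lipids. A further 3 genes passed the FDR without reaching 2-fold, Gla and Atp6v1a upward and Gusb downward, and 38 of the 52 did not pass it, where 27.8% of all genes tested passed. For 6 genes (Atp6v0a4, Atp6v0d2, Ctss, Ctsc, Lgmn and Gla) all tumors lay above all glands and for 4 (Atp6v0a2, Glb1, Gusb and Npc2) all lay below, as 10.7% and 8.53% of all genes tested did. The median log2 fold change was 0.15 over the lysosomal genes and 0.01 over all genes tested. Scaling each library to its epithelial marker genes instead moved the median of all genes by -0.71 and that of the lysosomal genes to -0.58, and the split became 3 higher and 16 lower (576 and 3433 over all genes), while no called gene changed its direction.

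**Figure D1:**
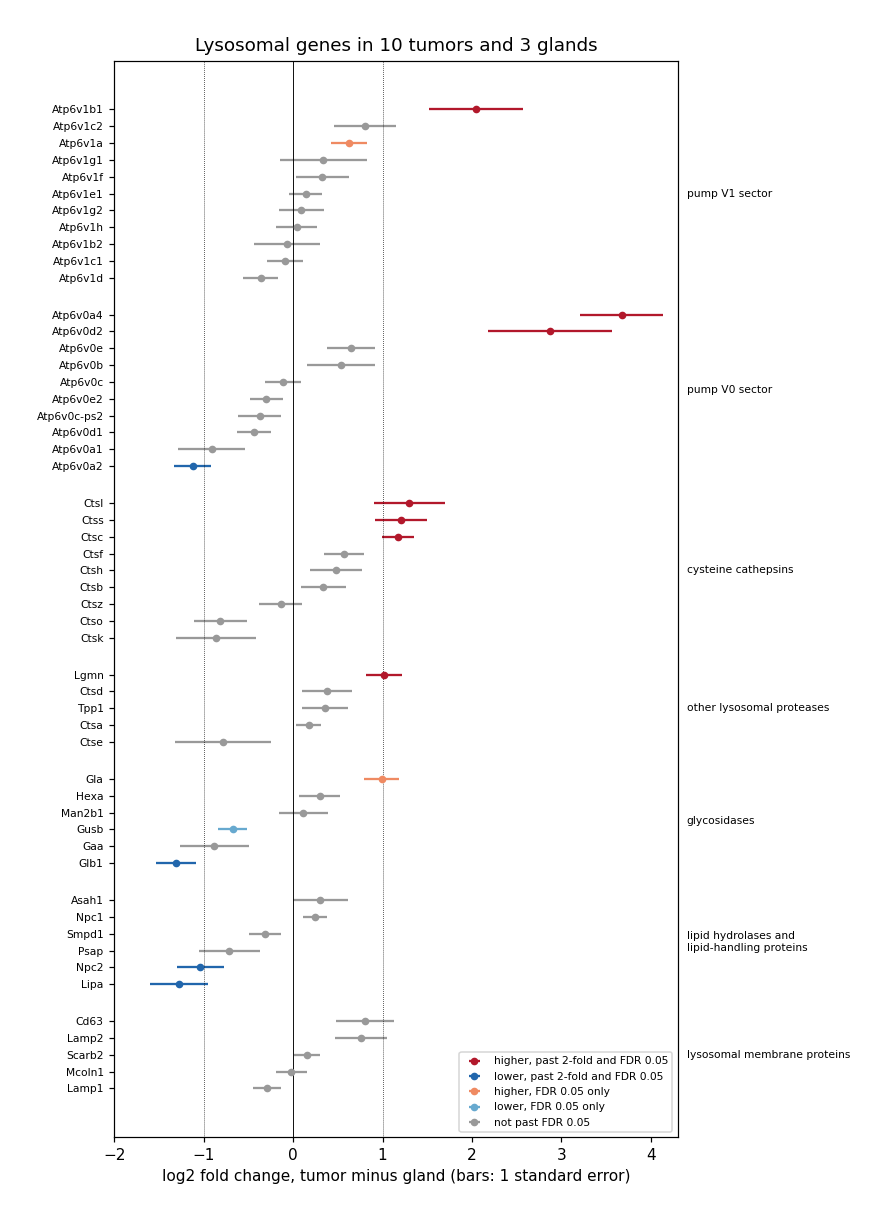
Log2 fold change of each of the 52 lysosomal genes, tumor minus gland, by group; points are limma estimates from 10 tumors and 3 glands, bars are 1 standard error, and dotted lines mark 2-fold. Atp6v0a4, Atp6v0d2 and Atp6v1b1 stand apart to the right, whereas the other pump genes lie between -1.13 (Atp6v0a2) and 0.80 (Atp6v1c2).

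The proton pump is built from subunits that every cell needs, and several of them (a, d, B, C, E and G) come as isoforms of different genes that can take the same place. The isoforms of restricted expression are known from kidney intercalated cells, the epididymis, the inner ear and other cells that pump protons across their surface, and, for d2, from osteoclasts and macrophages. Of the 7 restricted isoforms known by name, 5 had a row, and 3 of these 5 were called higher, where 10.2% of all genes tested were. Of these 3, Atp6v0a4 and Atp6v0d2 passed the filter on low values only through the tumors, and Atp6v1b1 was not called without gland 3. Of 14 subunits of wide expression, limma called 0 higher and 1 lower, with 2 higher and 3 lower at an unadjusted p under 0.05, and edgeR and DESeq2 on the recovered reads also called 0 higher and 1 lower. These counts depended on gland 3. Without it, limma called 2 of the 14 higher and 2 lower, and 2 of the 5 restricted isoforms higher.

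Atp6v0a4 (Entrez 140494, chromosome 6, 38048483 to 38124586) encodes the a4 isoform of the membrane subunit through which protons pass, which is mutated in a form of distal renal tubular acidosis. In the tumors it ranged from 6.50 (tumor 2) to 40.4 (tumor 7) with a median of 9.96 normalized cpm, whereas glands 1 and 2 were at 0 and gland 3 at 0.122, from a single read. All tumors lay above all glands. Pooled over libraries, the 1457 tumor reads and the 1 gland read gave a ratio of 714, with an exact 95% interval (Clopper-Pearson) of 128 to 28235 that covers counting error only. In the fit the log2 fold change was 3.67 (SE 0.46, adjusted p = 3.78e-05), which depends on the added 1 since the glands were near 0.

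Atp6v0d2 (Entrez 242341, chromosome 4, 19876838 to 19922566) encodes the d2 isoform of the subunit that joins V0 to the central stalk, and is known for its part in the fusion of osteoclast precursors. It ranged from 2.35 (tumor 8) to 57.6 (tumor 9) around a median of 12.8 normalized cpm in the tumors, and glands 1, 2 and 3 were at 0.642, 0.155 and 2.19. The lowest tumors were only just above gland 3, and the lowest and the highest tumor came from the same mouse (tumors 8, 9 and 10 were at 2.35, 57.6 and 2.96). The log2 fold change was 2.87 (SE 0.69, adjusted p = 0.00638), and it too depends on the added 1, being 3.99 with 0.1 added and 4.32 and 4.19 by edgeR and DESeq2 on the recovered reads. Since both Atp6v0a4 and Atp6v0d2 passed the filter through the tumors alone, a higher level there was a condition of their being tested.

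Atp6v1b1 (Entrez 110935, chromosome 6, 83743017 to 83758855) encodes the B1 isoform of the V1 subunit that shares ATP binding with subunit A, and is likewise mutated in distal renal tubular acidosis. It ranged from 28.9 (tumor 1) to 93.7 (tumor 4) around a median of 51.3 normalized cpm in the tumors, against 15.8, 34.8 and 2.44 in glands 1, 2 and 3. Relative to their mean the glands differed more among themselves than the tumors did, and 8 of 10 tumors lay above all of them. The log2 fold change was 2.04 (SE 0.52, adjusted p = 0.00905). Without gland 3, which was the lowest, it was 1.10 and did not pass the FDR (adjusted p = 0.0507), and without gland 2, the highest, it was 2.79. Without tumor 4, which stood apart in muscle genes, it was 1.95 (adjusted p = 0.0140).

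The remaining restricted isoforms did not pass the test. Atp6v1c2, an isoform of the C subunit that clamps V1 to V0 and is known from kidney and lung, ranged from 103 to 447 with a median of 247 normalized cpm in the tumors, and was at 128, 198 and 101 in the glands. Its groups overlapped through tumors 7 and 9 (log2 fold change 0.80, SE 0.34, adjusted p = 0.10). Without the mouse of tumors 8, 9 and 10, a choice made after the data were seen, it reached 1.00 and was called (adjusted p = 0.0328). Atp6v1g2, an isoform of the stalk subunit G found mainly in neurons, was at 3.59 to 9.41 normalized cpm in the tumors and 5.01 to 7.07 in the glands (log2 fold change 0.09, SE 0.25).

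Because the isoforms of a subunit compete for the same place, the share of each subunit's transcripts that the restricted isoform contributed was followed in every library, per kilobase of transcript. For subunit B, Atp6v1b1 made up 43.2% to 75.2% of the B transcripts in the tumors with a median of 51.8%, and 24.6%, 41.3% and 7.70% in glands 1, 2 and 3. All tumors were above all glands in this share, although the gap between tumor 7 and gland 2 was small. For subunit d, Atp6v0d2 made up 1.89% to 36.8% (median 8.22%) in the tumors and 0.353%, 0.0722% and 1.46% in the glands, again without overlap. For subunit a, the share of Atp6v0a4 was 2.75% to 17.4% (median 5.26%) in the tumors and at most 0.0858% in a gland. The total here included Tcirg1, the a3 isoform of osteoclasts and macrophages, which is not named with the Atp6v genes. Tcirg1 made up the larger part of the a transcripts in the tumors, with 49.7% to 72.2%, against 44.4%, 38.9% and 49.3% in glands 1, 2 and 3. Atp6v0a2 held 11.7% to 16.5% in the tumors and 28.3% to 32.8% in the glands. For subunit C, Atp6v1c2 already made up 60.2% to 81.8% of the C transcripts in the glands, and its 63.8% to 90.1% in the tumors overlapped that range.

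**Figure D2:**
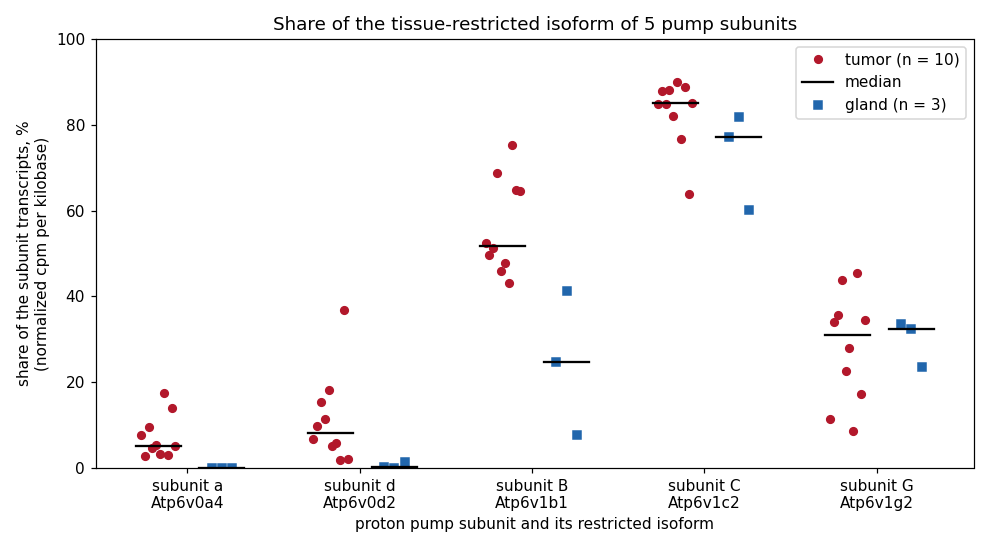
Share of the restricted isoform in the transcripts of each of 5 pump subunits (percent of normalized cpm per kilobase; Tcirg1 counted in subunit a), with 1 point per library and a line at the median of each group. The tumors lie above all glands for subunits a, d and B, and overlap the glands for C (63.8% to 90.1% in tumors) and G.

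The sums of all isoforms of a subunit were compared as well. Per kilobase, the mean level of all a isoforms was 62.1 normalized cpm in the tumors and 61.2 in the glands, and that of the d isoforms was 59.6 and 71.8. The means of the B isoforms were 49.0 and 30.0, those of the C isoforms 193 and 123 and those of the G isoforms 18.1 and 13.3. Of the G genes, Atp6v1g1 stood apart in tumors 1 and 7 (44.6 and 32.0 normalized cpm), and it was at 6.71 to 17.1 in the other tumors and at 7.49, 7.80 and 17.1 in the glands.

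Of the widely expressed pump genes, Atp6v0a2 fell. It encodes the a2 isoform, known from the Golgi and early endosomes and mutated in a cutis laxa syndrome. Its level was 29.1 to 55.9 (median 44.2) normalized cpm in the tumors and 105, 119 and 75.9 in glands 1, 2 and 3, and all tumors lay below all glands. The log2 fold change was -1.13 (SE 0.21, adjusted p = 0.000861), and it was -0.99 without gland 2 and likewise just short of 2-fold without the mouse of tumors 8, 9 and 10. Atp6v1a, the catalytic A subunit, was at 134 to 268 (median 188) in the tumors and at 104, 116 and 138 in the glands, with 9 of 10 tumors above every gland and only tumor 8 below gland 3 (log2 fold change 0.62, SE 0.20, adjusted p = 0.0328). Under the epithelial scaling, which moves all genes of a library nearly alike, it was at -0.13 (0.59 above the shift of all genes).

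The other V1 subunits of wide expression (b2, c1, d, e1, f, g1 and h) had log2 fold changes between -0.36 (Atp6v1d) and 0.34 (Atp6v1g1), and none passed the FDR. Atp6v1g1, the common G isoform, varied most among them, from 6.71 in tumor 4 to 44.6 in tumor 1. In the V0 sector, Atp6v0a1, counted with the subunits of wide expression though known mainly from neurons, was at -0.91 on the log2 scale (adjusted p = 0.0858). Its level was 29.4 in gland 3 but 71.9 and 80.3 in glands 1 and 2. Atp6v0e and Atp6v0b, a small membrane subunit and a member of the proton-carrying ring, had values of 0.64 and 0.54 (adjusted p = 0.0909 and 0.334). Atp6v0d1 and Atp6v0e2, the common d isoform and a variant of the e subunit, had -0.44 and -0.30 (adjusted p = 0.0987 and 0.257). On the transcript length used, 465 bases, the row with the highest level per kilobase in V0 was Atp6v0c-ps2, the pseudogene. It was at 355 normalized cpm in the tumors and 461 in the glands. The row spans a longer stretch (chromosome 6, 37805975 to 37807107), so that its level per kilobase may be overstated. Next was Atp6v0b (296 and 222), whereas Atp6v0c, the main ring subunit, was at 66.9 and 72.8. Reads that match both Atp6v0c and the pseudogene cannot be assigned from the deposited values. These 2 rows summed to 163 to 341 normalized cpm in the tumors and to 335, 353 and 213 in the glands. In the V1 sector Atp6v1c2 was the highest per kilobase in the tumors (164, and 91.2 in the glands) and Atp6v1e1, a stalk subunit, in the glands (128, and 140 in the tumors).

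The genes that help the pump assemble or work were described as a list of 12 names, of which 10 passed the filter. Of these, 0 were called higher by limma, edgeR or DESeq2 (2 at an unadjusted limma p under 0.05) and 1 lower, where 10.2% and 6.99% of all genes tested were. The list also held Tcirg1, the a3 isoform, which was counted neither with the restricted isoforms nor with the subunits of wide expression. Rogdi, a subunit of the RAVE-like complex that reattaches V1 to V0, fell from 203, 195 and 185 normalized cpm in the glands to between 16.4 and 92.7 in the tumors (log2 fold change -2.39, SE 0.40). Tcirg1 passed the FDR alone, at 83.2 to 146 in the tumors and 84.0, 75.4 and 58.1 in the glands (log2 fold change 0.61, adjusted p = 0.0303).

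Foxi1, a transcription factor of intercalated cells and ionocytes that is known to act on Atp6v0a4 and Atp6v1b1 in the kidney and inner ear, was looked up after the pump values had been seen. It ranged from 1.51 (tumor 6) to 38.0 (tumor 9) around a median of 8.80 normalized cpm in the tumors, and was at 1.97, 2.32 and 0.366 in glands 1, 2 and 3. Of the tumors, 9 of 10 lay above every gland (log2 fold change 2.22, SE 0.65, adjusted p = 0.0189), and the highest 3 were tumors 9, 8 and 10 of the same mouse. Of the 8 ionocyte and intercalated cell genes looked up with it, 3 had a row, of which Foxi1 alone passed the filter. Their sum overlapped between the groups (5.66 to 49.4 in the tumors and 9.63, 2.89 and 13.9 in the glands). Cftr, another of them, did not pass the filter. It was low but without overlap, at 1.63 to 11.3 in the tumors and 0.343, 0.516 and 0.488 in the glands. Foxi1 was under 5 normalized cpm in every gland and passed the filter only through the tumors, so that a higher level there was a condition of its being tested. Markers of osteoclasts, in which d2 and a3 are known, moved unevenly. Of 7 names 5 were listed and 4 passed the filter, and Dcstamp, the fusion protein of these cells, rose (18.8 to 48.7 in tumors and 2.74 to 4.96 in glands, so that it too passed only through the tumors), whereas Acp5, their acid phosphatase, was at 102 to 158 and 137 to 207. The summed osteoclast genes overlapped (151 to 235 in the tumors and 208, 166 and 239 in the glands). The part of such cells in the pump values was not tested.

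**Figure D3:**
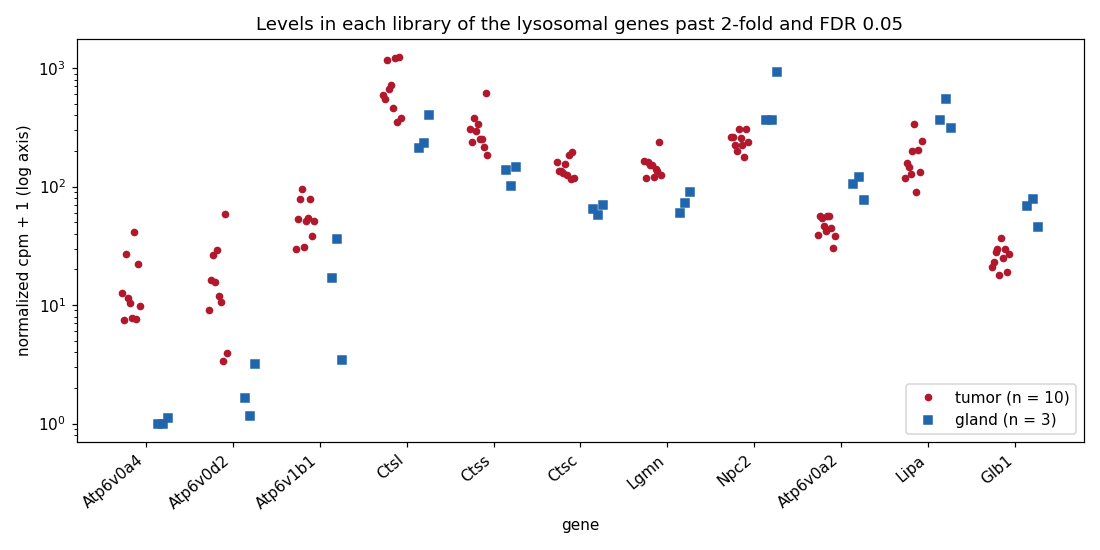
Level of each of the 11 called lysosomal genes in every library (normalized cpm + 1, logarithmic axis); circles are the 10 tumors and squares the 3 glands. Tumors and glands do not overlap for Atp6v0a4, Atp6v0d2, Ctss, Ctsc, Lgmn, Npc2, Atp6v0a2 and Glb1, and overlap for Atp6v1b1, Ctsl and Lipa.

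Cathepsins are the main proteases of the lysosome. Of the 9 cysteine cathepsins, 3 were called higher and 0 lower by limma (4 and 1 at an unadjusted p under 0.05, and 3 and 0 also by edgeR and by DESeq2), where 10.2% and 6.99% of all genes tested were called, and their median log2 fold change was 0.48. Under the epithelial scaling Ctsl, Ctss and Ctsc kept a positive sign (0.55, 0.45 and 0.42) but were not called. Summed over the 9 genes, the level was 1892 to 3748 normalized cpm in the tumors and 1589, 1577 and 2119 in the glands, with tumors 8 and 10 below gland 3.

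Ctsl (Entrez 13039, chromosome 13, 64361890 to 64370772), an endopeptidase that is also needed for normal hair follicles and epidermis, had the highest level per kilobase among them in the tumors (372 normalized cpm, and 143 in the glands, where Ctsb had 176). It ranged from 353 (tumor 8) to 1235 (tumor 9) with a median of 630 normalized cpm in the tumors, and was at 210, 231 and 404 in glands 1, 2 and 3. Tumors 3, 7 and 9 were between 1176 and 1235 and the others between 353 and 717, with 8 of 10 above every gland. The log2 fold change was 1.30 (SE 0.40, adjusted p = 0.0247), and the call was lost when gland 1 (1.12, adjusted p = 0.135) or gland 2 was left out (1.19, adjusted p = 0.107).

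Ctss (Entrez 13040, chromosome 3, 95526786 to 95556405) is the cathepsin of antigen-presenting cells, where it trims the invariant chain of class II molecules. It ranged from 184 (tumor 10) to 616 (tumor 9) around a median of 275 normalized cpm in the tumors and was at 136, 99.7 and 146 in the glands, without overlap. Its log2 fold change was 1.2 (SE 0.29, adjusted p = 0.00625). Lymphocyte genes were higher in glands 1 and 3 than in any tumor, and their part in the Ctss values was not tested.

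Ctsc (Entrez 13032, chromosome 7, 88278024 to 88315861), the dipeptidyl peptidase that activates the serine proteases of neutrophils, mast cells and cytotoxic lymphocytes, was the most even of the called cathepsins. Its tumors lay between 116 and 196 (median 134) normalized cpm and its glands at 64.1, 56.2 and 69.0, with a log2 fold change of 1.17 (SE 0.18, adjusted p = 0.000191). Leaving out any 1 library kept it between 1.09 and 1.24.

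The other cysteine cathepsins did not pass the FDR. Ctsb, an abundant cathepsin with both endopeptidase and carboxydipeptidase activity, was at 709 to 1572 normalized cpm in the tumors and 793, 791 and 914 in the glands (log2 fold change 0.33). Ctsh and Ctsf had values of 0.48 and 0.56 (adjusted p = 0.255 and 0.0765), and Ctsz, a carboxypeptidase, -0.14. Ctsk, the collagen-degrading cathepsin of osteoclasts, and Ctso had -0.87 and -0.82 (adjusted p = 0.173 and 0.0550), and for each 8 of 10 tumors lay below every gland. Ctsk varied 9.09-fold among the tumors, from 5.38 in tumor 6 to 48.9 in tumor 9.

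Of the 5 other lysosomal proteases, 1 was called higher and 0 lower, where 10.2% and 6.99% of all genes tested were. Lgmn (Entrez 19141, chromosome 12, 102394082 to 102439728), legumain, which cuts after asparagine and activates several cathepsins, ranged from 118 to 238 (median 145) normalized cpm in the tumors and was at 59.4, 71.0 and 89.5 in the glands, without overlap. Its log2 fold change of 1.01 (SE 0.20, adjusted p = 0.00159) lay just above the 2-fold limit and fell just under it without tumor 1, tumor 3, gland 1 or gland 2 (0.87 to 1.00) and without tumor 9 (0.93). Ctsd, the aspartic protease, had the highest level per kilobase of all 52 genes in the tumors, at 688 normalized cpm against 527 in the glands. Its level was 940 to 2073 in the tumors and 959, 929 and 1475 in the glands, and the groups overlapped (log2 fold change 0.37, SE 0.28, adjusted p = 0.358). Tpp1 and Ctsa, a tripeptidyl peptidase and the protective protein of the sialidase complex, had values of 0.36 and 0.17. Ctse, an aspartic protease of endosomes in the stomach and immune cells, had -0.79 (adjusted p = 0.308) and spread 12.3-fold among the tumors, from 4.32 in tumor 9 to 53.1 in tumor 6.

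Macrophage genes were set beside the proteases. Of 16 markers 15 passed the filter, 5 were called higher and 5 more passed the FDR upward, and for 7 every tumor lay above every gland. Of all genes tested 10.2% were called higher, 14.8% passed the FDR upward and 10.7% had every tumor above every gland. Itgam, Msr1, Fcgr1 and Cd68 rose (log2 fold changes 2.28, 2.78, 1.45 and 1.31), whereas Csf1r, the receptor that defines the lineage, was at 39.6 to 107 normalized cpm in the tumors and 83.9, 59.0 and 39.3 in the glands (log2 fold change 0.16). The summed list was highest in tumor 9, which also had the highest Ctsl, Ctss, Ctsc and Lgmn, and lowest in tumor 10, which had the lowest Ctss, whereas Ctsl and Ctsc were lowest in tumor 8 and Lgmn in tumor 2. Lyz2 alone made up 4024 of the 5280 normalized cpm of tumor 9. Without Lyz2 and Cd14, which neutrophils also express, the sum was 594 to 1271 in the tumors and 534, 498 and 528 in the glands. Tumor 3 was the highest (1271, and 968 in tumor 9). Itgam, likewise expressed by neutrophils, stayed in this sum, which is therefore not one of macrophages alone. Single markers differed there: Csf1r was lowest of all tumors in tumor 9 (39.6), Adgre1 was highest (38.5) and C1qa was in between (182). Of 7 neutrophil markers 6 were listed and 3 (S100a8, S100a9 and Csf3r) passed the filter and rose, and these were under 5 normalized cpm in glands 1 and 2 and passed through the tumors. The median log2 fold change was 6.10 over these 3 and 1.58 over the 6 listed. The list summed to 304 to 3941 in the tumors and to 11, 3.98 and 49.7 in the glands, and none of the macrophage or neutrophil markers listed was at 0 in all tumors. The part of these cells in the protease values was not tested.

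Glycosidases remove sugars from glycolipids, glycoproteins and glycosaminoglycans. Of the 6 followed, limma called 0 higher and 1 lower, with 1 higher and 3 lower at an unadjusted p under 0.05, and edgeR and DESeq2 called 1 of each. In the limma test 10.2% of all genes were called higher and 6.99% lower. Glb1 (Entrez 12091, chromosome 9, 114401078 to 114474379), the beta-galactosidase whose activity is used as a mark of senescent cells, was at 17 to 36.1 (median 25.1) normalized cpm in the tumors and at 67.7, 77.4 and 44.4 in the glands. All tumors lay below all glands (log2 fold change -1.31, SE 0.22, adjusted p = 0.000470), and the value stayed between -1.54 and -1.15 when any 1 library was left out.

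Gusb, the beta-glucuronidase, had the highest level per kilobase of the group in the glands (47.4) and Hexa in the tumors (34.1). Gusb passed the FDR alone, at 63.0 to 97.4 normalized cpm in the tumors and 130, 140 and 112 in the glands (log2 fold change -0.68, SE 0.16, adjusted p = 0.00529). Gla, the alpha-galactosidase that is deficient in Fabry disease, went the other way. It was at 9.34 to 19.3 in the tumors and 7.45, 5.94 and 6.95 in the glands, without overlap. Its log2 fold change of 0.99 (SE 0.20, adjusted p = 0.00166) just missed 2-fold, and it was called at 1.11 by edgeR and 1.12 by DESeq2. Gaa, the acid alpha-glucosidase, had -0.88 (adjusted p = 0.108). Hexa, which acts on gangliosides, and Man2b1, the alpha-mannosidase, had 0.30 and 0.11.

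Of the 6 lipid hydrolases and lipid-handling proteins, 2 were called lower and 0 higher by limma, edgeR and DESeq2, with 0 higher also at an unadjusted p under 0.05. The shares over all genes tested were 6.99% lower and 10.2% higher. Lipa (Entrez 16889, chromosome 19, 34492316 to 34527474), the acid lipase that frees cholesterol and fatty acids from internalised lipoproteins and lipid droplets, was at 88.6 (tumor 7) to 336 (tumor 6) with a median of 151 normalized cpm in the tumors, and at 363, 552 and 310 in the glands. Only tumor 6 reached the level of gland 3 (log2 fold change -1.28, SE 0.33, adjusted p = 0.00921), and without gland 2 the gene did not pass the FDR (-1.04, adjusted p = 0.0711). Npc2 (Entrez 67963, chromosome 12, 84754559 to 84773112), which hands cholesterol on to NPC1 for export from the lysosome, was at 177 to 307 (median 247) in the tumors and at 363, 364 and 928 in the glands. All tumors lay below all glands (log2 fold change -1.04, SE 0.26, adjusted p = 0.00815), but the size rested on gland 3, without which it was -0.59, and it was -0.99 without tumor 8. Npc1 itself was at 43.6 to 60.0 in the tumors and 49.1, 48.5 and 37.5 in the glands (log2 fold change 0.24).

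Psap, the precursor of the saposins that present glycolipids to their hydrolases, was the highest of the lipid group per kilobase (384 in the tumors and 619 in the glands). It ranged from 636 to 1548 normalized cpm in the tumors and was at 1807, 2069 and 1042 in the glands (log2 fold change -0.71, SE 0.34, adjusted p = 0.134). Smpd1 and Asah1, the acid sphingomyelinase and the acid ceramidase, had values of -0.31 and 0.30. As a sum, the 6 genes were at 1196 to 2239 normalized cpm in the tumors and at 2657, 3109 and 2447 in the glands, so that all tumors lay below all glands. Much of this sum was Psap, which did not pass the FDR, and in gland 3 also Npc2 (928). Asah1 and Npc1 had positive log2 fold changes (0.30 and 0.24).

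Adipocyte markers fell beside these genes. All 3 of the 10 adipocyte markers that passed the filter were called lower, and gland 3 had the highest sum of the list (12326) together with the highest Npc2, but the lowest Lipa and Glb1 of the glands. The part of adipocytes in the 3 lower genes was not tested.

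Of the 5 lysosomal membrane proteins, limma, edgeR and DESeq2 called 0 in either direction, with 2 higher and 0 lower at an unadjusted limma p under 0.05. Without gland 3, limma called 1 of them higher. Lamp1, a heavily glycosylated protein of the lysosomal membrane and the most abundant of the group per kilobase in the glands (276, and 225 in the tumors), was at 419 to 568 normalized cpm in the tumors and at 548, 609 and 686 in the glands (log2 fold change -0.29, SE 0.16, adjusted p = 0.199). Lamp2, of which one isoform serves chaperone-mediated autophagy, was the most abundant per kilobase in the tumors (237, and 142 in the glands) and was at 340 to 814 and at 210, 270 and 450 (log2 fold change 0.75, adjusted p = 0.0674). Cd63, a tetraspanin of late endosomes and exosomes, was at 86.3 to 316 and at 78.3, 78.4 and 112 (log2 fold change 0.80, adjusted p = 0.0793), with 9 of 10 tumors above every gland. Scarb2, the receptor that carries glucocerebrosidase to the lysosome, and Mcoln1, a calcium channel, had 0.15 and -0.02, with standard errors of 0.15 and 0.17.

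**Figure D4:**
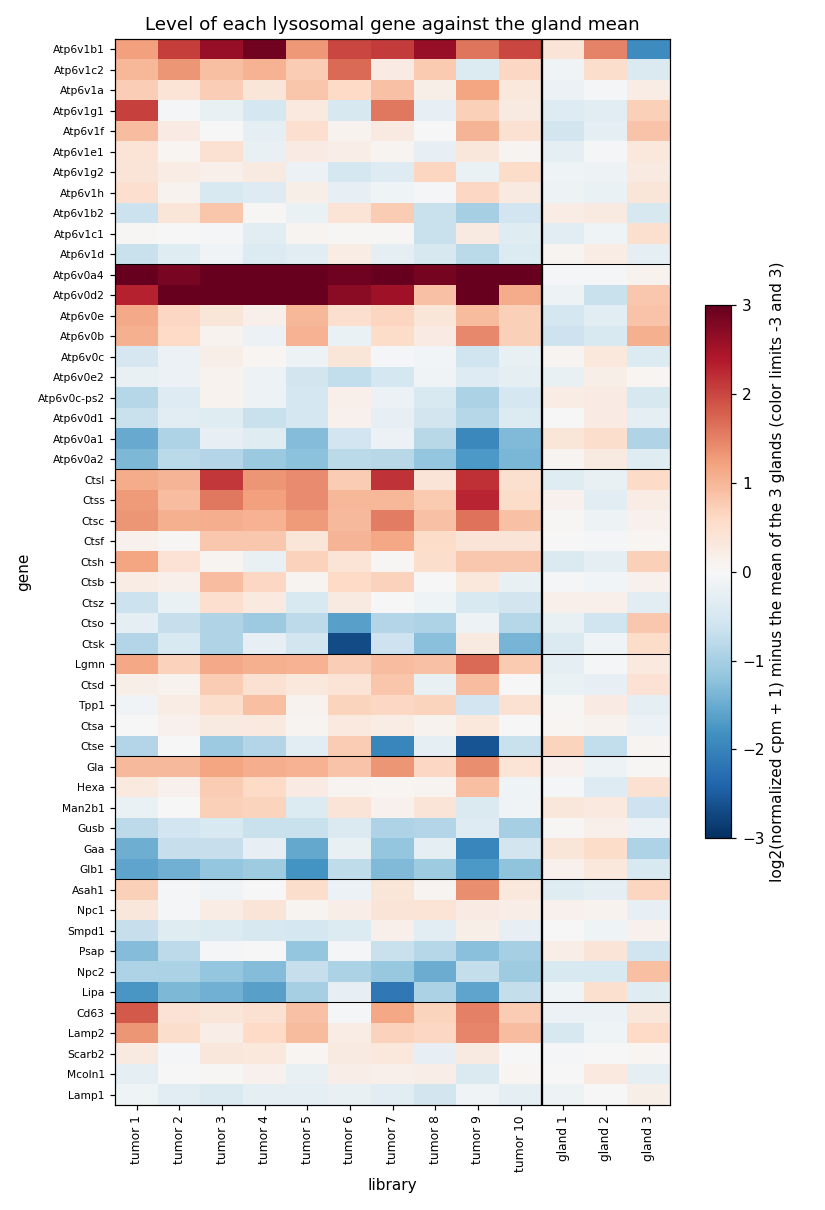
Level of each of the 52 lysosomal genes in each library relative to the mean of the 3 glands (difference of log2(normalized cpm + 1), colors limited at -3 and 3), in the same order of groups as in the plot of fold changes. Atp6v0a4 and Atp6v0d2 are red across the tumors, Glb1, Npc2 and Atp6v0a2 are blue across them, and gland 3 differs from glands 1 and 2 in many rows, such as Atp6v1b1 and Npc2.

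Among the tumors, the lysosomal genes varied about as much as other genes, with a median coefficient of variation of 26.8% against 26.3% over all genes tested. For 15 of the 52 the highest tumor was more than 3-fold above the lowest. The most even were Ctsa (8.60%), Lamp1 (8.74%) and Npc1 (10.1%), and the most variable Atp6v0d2 (93.9%), Atp6v1g1 (79.3%), Atp6v0a4 (75.1%) and Ctse (65.6%). Tumor 9 was the highest tumor for 21 genes and the lowest for 13, and the library with the most Rn45s reads. Without tumor 9 and gland 3, the tumor and the gland highest in Rn45s, Npc2 dropped below 2-fold (-0.62) and no other called gene was lost.

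The 52 genes together took 0.95% to 1.49% of the tumor reads outside Rn45s and 0.739% to 0.854% of those of the glands, in which milk protein genes took a larger part. On the normalized scale the sums overlapped, at 7976 to 11868 in the tumors and 8600, 9413 and 10061 in the glands. The order of levels per kilobase was led by Ctsd, Psap and Ctsl in the tumors and by Psap and Ctsd in the glands. The Atp6v0c pseudogene came next in the glands on the transcript length used (461), ahead of Lamp1 (276), but its level may be overstated.

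Further lysosomal genes from fixed lists were counted in the same test. Of 35 other hydrolases that passed the filter, 2 were called higher and 3 lower, beside 10.2% and 6.99% of all genes tested, so that the count does not set the list apart. Dnase2a, the acid DNase, rose (log2 fold change 1.66, adjusted p = 0.000577), without overlap at 44.0 to 131 in the tumors and 17, 16.0 and 32.7 in the glands. Gm2a, an activator protein of ganglioside breakdown, fell from 541, 611 and 393 normalized cpm in the glands to between 67.7 and 140 in the tumors (log2 fold change -2.36, SE 0.22), and Pla2g15 and Siae, a phospholipase and a sialic acid esterase, fell as well (-1.5 and -1.19). Of 24 other lysosomal membrane proteins, Cd68 was called higher and Abcb9, a peptide transporter, lower (1.31 and -1.35). Of 18 genes that sort hydrolases to the lysosome, 0 were called higher by limma, edgeR or DESeq2 (0 at an unadjusted p under 0.05) and 2 lower, namely Gga2 and Sorl1 (both -1.22), an adaptor and a receptor between the Golgi and endosomes. A further 3 of these passed the FDR downward without reaching 2-fold, Gnptab (-0.75), Ap1b1 (-0.92) and Ap1m1 (-0.71).

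The list of cathepsin inhibitors held cystatins and stefins, which block cysteine cathepsins, beside Spint1 and Serpinb6a, which belong to neither family. Of its 7 genes past the filter, 3 were called higher and 0 lower by limma, edgeR and DESeq2 (4 and 0 at an unadjusted limma p under 0.05). Of all genes tested 10.2% were called higher. Without gland 3, 5 of the 7 were called higher. The 3 called in the main test were under 5 normalized cpm in every gland and passed the filter only through the tumors. A higher level in the tumors was thus a condition of their being tested. Cst6, cystatin M of the epidermis and its appendages, was at 312 to 2219 normalized cpm in the tumors and at 0.514, 0.465 and 1.34 in glands 1, 2 and 3. Stfa3 was at 10.3 to 125 in the tumors and at 0, 0 and 0.122 in the glands, and Csta1 at 3.68 to 55.3 in the tumors and 0 in every gland. Stefin genes are near-identical copies whose reads may be shared among them. Cst3 and Cstb, the inhibitors of wide expression, overlapped between the groups (log2 fold changes 0.64 and 1.11, adjusted p = 0.334 and 0.0963).

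Many lysosomal genes are known to be switched on by TFEB and its relatives, which bind an E-box, CACGTG, in a longer palindrome near the start site (the CLEAR element). Of 17 genes for these factors and their regulators that passed the filter, limma, edgeR and DESeq2 called 0 in either direction (2 higher and 1 lower at an unadjusted limma p under 0.05). In limma 1 of the 17 passed the FDR upward without reaching 2-fold. Tfeb and Tfe3 had log2 fold changes of -0.23 and 0.01 (SE 0.20 and 0.28). Mitf had 0.69 (adjusted p = 0.0724). RefSeq promoter windows of 300 bases (250 before the start and 50 after it, GRCm38.p6) were matched for 40 of the 52 genes. The core CACGTG was found in 14 of these 40 (35.0%) and in 11.2% of the 11673 listed genes with a window. The longer TCACGTGA, which contains the core, was found in 7 of 40 (17.5%) and in 2.05% of all windows, and GTCACGTGAC, which contains both, in 0 of 40 and in 0.702%. Each of the 3 reads the same on both strands. Such a match is a description of these letters and not a site shown to be bound.

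The genes with TCACGTGA were Atp6v0d1, Atp6v0e, Atp6v1a, Ctsa, Ctsd, Gla and Mcoln1, with a pair of matches in Ctsa and in Gla. The stretches of 30 bases around the match are shown for all 7, of which Gla and Atp6v1a passed the FDR, so that the match and the change can be set side by side. Capitals mark the 8 bases of the match, and each line reads 5′ to 3′ on the strand of the gene. Distances run from the start used for the RefSeq window, which can lie inside the span of the gene, to the first base of the match, and a match after the start is given by its position with the start as base 1.
Gla, first match (chrX:134601215-134601244, minus strand, 228 bases before the start): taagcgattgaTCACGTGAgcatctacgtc
Gla, next match (chrX:134601182-134601211, minus strand, 195 bases before the start): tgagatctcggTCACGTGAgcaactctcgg
Atp6v1a (chr16:44139373-44139402, minus strand, 132 bases before the start): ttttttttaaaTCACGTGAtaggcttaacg
Ctsd (chr7:142387908-142387937, minus strand, 99 bases before the start): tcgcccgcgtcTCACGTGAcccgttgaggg
Atp6v0d1 (chr8:105566050-105566079, minus strand, 4 bases before the start): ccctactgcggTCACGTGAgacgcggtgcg
Mcoln1 (chr8:3500462-3500491, plus strand, 46 bases before the start): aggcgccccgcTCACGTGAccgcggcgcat
Atp6v0e (chr17:26676387-26676416, plus strand, base 3 from the start): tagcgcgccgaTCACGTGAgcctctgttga
Ctsa, first match (chr2:164833749-164833778, plus strand, 13 bases before the start): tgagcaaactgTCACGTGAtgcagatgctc
Ctsa, next match (chr2:164833766-164833795, plus strand, base 5 from the start): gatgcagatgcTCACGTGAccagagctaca
Of the genes shown, Gla and Atp6v1a had the log2 fold changes of 0.99 and 0.62 given above, and Atp6v0e (0.64, adjusted p = 0.0909), Ctsd (0.37), Ctsa (0.17), Mcoln1 (-0.02) and Atp6v0d1 (-0.44) did not pass the FDR. Of the 11 called genes 9 were matched to a window, of which 3 had the core (Ctsl, Lgmn and Glb1) and 0 had TCACGTGA.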

How the data were processed

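Total RNA of 10 tumors and 3 glands was sequenced as paired-end reads, which the authors mapped to mm10 with Rsubread, counted per gene with featureCounts and normalized with edgeR. The strand setting is not given in the sources used here. The labels name a core facility and a company for the sequencing without saying which made which library, so that no batch could be assigned. The signal values deposited by the authors were normalized cpm: cpm scaled to an effective library size that differs from the sum of reads. Whole reads were recovered from the step between values, and 100% of the values in every library came out whole within 0.05 reads. A count test had not been planned as the main test for such values. Reads on overlapping genes, paralogs and pseudogenes could not be reassigned.

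The main test was limma 3.58.1 (R 4.3.3; moderated statistics with a trend on mean level) on log2(normalized cpm + 1), fitted to the 13 libraries without covariates. A gene was tested if it exceeded 5 normalized cpm in at least 7 of the 13 libraries, and genes past an FDR of 0.05 (Benjamini-Hochberg over 11795 genes) with more than 2-fold change were called. A log2 fold change on this scale understates the change of low genes. The p-values measure the spread between libraries, with tumors of the same mouse counted as separate. The alternatives were edgeR 4.0.16 and DESeq2 1.42.0 on recovered reads, other scalings, a pseudocount of 0.5 or 0.1, no filter, the mouse as a random block or tumors of a mouse summed, the replicate number as a block, and each library left out. The script was tested on simulated data.

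Levels were compared between genes only per kilobase, with the median length of the transcripts of GENCODE vM21 that match a curated RefSeq transcript. Coordinates are those of GRCm38.p6 (mm10), matched by Entrez ID. Fixed lists gave the related genes and cell type markers. Genes given in full were the called ones, up to 6 largest rises and falls in the pump and in the other genes, then those past the FDR alone, the restricted pump isoforms and the highest gene per kilobase of each group. The members and lists were chosen with earlier results of these data known, and the lists of markers and related genes came from general knowledge. No column of the table was left out. One gene of the list of other hydrolases, counted among those called higher, is not reported here.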

Additional observations from a re-analysis of the deposited data

Results flagged for a closer look

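In 4 of the 52 genes the highest of the 10 tumors stood farther from the next one than the spread of the others allows by Dixon's 95% limit, and in each it was tumor 9. Chance alone marks about 1 in 20 such groups of tumors. Ctss, the cathepsin of antigen-presenting cells, was at 616.4 normalized cpm in tumor 9 and 380.9 in the next tumor. Atp6v0d2, the d2 isoform of the proton pump, was at 57.58 against 27.92. Lgmn, legumain, was at 237.6 against 161.9, and Asah1, the acid ceramidase, at 177.8 against 110.5. Tumor 9 also had the highest share of Rn45s reads (27.4%) and the highest sum of macrophage markers (5280 normalized cpm), of which Lyz2 made up 4024. Without Lyz2 and Cd14 the sum was highest in tumor 3 (1271, and 968 in tumor 9). Whether either bears on these 4 values was not tested. Without tumor 9, Lgmn had a log2 fold change of 0.93 and was under 2-fold.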

How the results depend on the processing

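Over 26 alternatives, no gene called in the main test changed its direction. Atp6v0a4 and Atp6v0d2 stayed called in all of them. edgeR and DESeq2 on the recovered reads, the other scalings except that to epithelial genes, the pseudocounts, the filter and both treatments of the mouse kept the counts of calls over the 52 genes, over the pump and over the others within 1.5 times of the main ones, with Gla as an additional call in several of them. Smaller lists moved more: 1 sorting gene in place of 2 was called lower with the tumors of a mouse summed, and 2 other lysosomal membrane proteins in place of 1 were called lower by DESeq2. They moved most without gland 3, where 4 sorting genes were called lower, and 2 other lysosomal membrane proteins higher and 3 lower.

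Scaling to epithelial genes, which lowers all genes by 0.71 in the median, gave 3 lysosomal genes higher and 16 lower (3 and 5 of the pump, 0 and 11 of the others, with 0 and 17 of the others at an unadjusted p under 0.05), a median of -0.58, and turned the sign of Tsg101 (-0.44), Atp6v1a (-0.13) and Atp6v1g2 (-0.57). Such a scaling moves all genes of a library nearly alike. Values relative to the shift (Atp6v1a 0.59, Atp6v1g2 0.14, Ctsc 1.14 and Glb1 -1.34) therefore repeat the main ones by construction and are no further support. On the new scale itself Ctsl, Ctss, Ctsc and Lgmn were no longer called. Without the mouse of tumors 8, 9 and 10, Atp6v1g2 turned to -0.0099 and 0 pump genes were called lower (1 at an unadjusted p under 0.05). Without the tumor and the gland highest in Rn45s, 2 pump genes were called lower. Both were chosen after seeing the data.

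Leaving out 1 library at a time, 5 to 10 lysosomal genes were called higher and 3 to 6 lower, 3 to 4 pump genes higher and 0 to 2 lower, and 2 to 6 of the others higher and 2 to 4 lower, with a median between 0.09 and 0.20 and Tsg101 between 0.19 and 0.40. The lowest counts of the others higher (2) and of pump genes lower (0, with 1 at an unadjusted p under 0.05) came without gland 2, and 2 pump genes were lower without gland 3. With 3 glands, the calls of Atp6v1b1, Ctsl, Lipa, Npc2, Atp6v0a2 and Lgmn depended on single libraries, as given above.

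The replicate numbers of tumors and glands name different mice, and the deviations of same-numbered libraries correlated at -0.58, 0.04 and -0.66, so the numbers do not pair the samples. With the replicate block, in which only the libraries numbered 1 to 3 inform the comparison, 2 lysosomal genes were called higher and 0 lower (8 and 3 at an unadjusted p under 0.05), 2 and 0 of the pump and 0 and 0 of the others. Depth limits the low genes most: Atp6v0a4 and Atp6v0d2 were at 0 to 18 reads in the glands.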
